A study of Mus musculus with 2 samples.

Results

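The 7 genes described here, *Stmn1*, *Stmn2*, *Stmn3*, *Prph*, *Nptx2*, *Cabp1* and *Shisa8*, are genes best known from neurons whose transcripts were measured in mouse embryonic stem cells (mESCs). They were selected on their ratio of UMI counts between the libraries and by their neuronal function, taken by name from the 31053 genes of the count matrices, and all 7 were present. The cells are E14 mESCs, a feeder-free line, either parental (WT) or carrying *Smad1/5* double knockout (S1/5 dKO) made with CRISPR-Cas9. Both were grown on gelatin in SL, a medium with 15% FBS and 1000 U/ml LIF, and 1 library was made from each with the Chromium 3′ v3 kit. The labels do not say which knockout clone was used. Cells were the barcodes in which 1000 genes or more were detected and no more than 5% of the UMIs (unique molecular identifiers, each counting 1 captured mRNA molecule) were mitochondrial. This gave 2236 WT cells with a median of 38662 UMIs and 2910 cells of the other library with a median of 34548.5 UMIs, and the libraries shared 0 of these barcodes.

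The targeted genes were looked at first. *Smad1* was at 13.4 CPM (UMIs of the gene per 1000000 UMIs) in WT against 9.17 CPM, a log2 ratio of −0.55 (95% interval −0.67 to −0.43). *Smad5* stood at 6.05 against 9.09 CPM, a log2 ratio of 0.59 (0.44 to 0.74), so its mRNA was not lower in the second library. The label gives a genotype and no mRNA level, and the second library is called the dKO-labelled library. A 3′ count does not show whether the protein is made. The BMP-SMAD target genes *Id1*, *Id2* and *Id3*, which encode inhibitors of differentiation, were lower in that library, with log2 ratios of −1.01, −1.76 and −0.75. With 1 library per condition no test between conditions was possible, and every interval covers counting error only.

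Stathmins are small phosphoproteins that bind tubulin dimers and promote microtubule turnover. *Stmn1* is widespread in dividing cells, whereas *Stmn2* (SCG10) and *Stmn3* (SCLIP) encode membrane-anchored relatives of growing neurons. *Prph* encodes peripherin, an intermediate filament of peripheral neurons, *Nptx2* a secreted pentraxin that gathers AMPA receptors at synapses, *Cabp1* a calmodulin-like calcium sensor that modulates channels, and *Shisa8* a transmembrane protein of a family that modulates AMPA receptors. In non-neuronal cells, many neuronal genes are held down by REST, a repressor that recruits corepressors such as the demethylase KDM1A.

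In the GENCODE annotation of GRCm38, the build matching the authors' mm10, the members are protein-coding genes at separate places. *Stmn1* lies at chr4:134468320-134473843 on the plus strand, *Stmn2* at chr3:8509360-8561606 on the plus strand, and *Stmn3* at chr2:181306459-181314500 on the minus strand. *Prph* lies at chr15:99055174-99058978 on the plus strand and *Shisa8* at chr15:82206168-82212815 on the minus strand. *Nptx2* lies at chr5:144545902-144557478 on the plus strand and *Cabp1* at chr5:115168689-115194381 on the minus strand. No counted gene overlapped any of them.

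RefSeq promoter sequences (GRCm38.p6) were found for 4 of the 7 members, *Stmn3*, *Prph*, *Cabp1* and *Shisa8*. The 250 bases before the start are printed for *Cabp1*, which was among the members that differed most between the libraries and has 2 annotated starts, and for *Prph*, whose interval of the ratio includes no difference. They are written 5′ to 3′ on the gene's own strand, and capitals mark matches to the motifs searched.
Cabp1, first start, chr5:115194382-115194631, minus strand: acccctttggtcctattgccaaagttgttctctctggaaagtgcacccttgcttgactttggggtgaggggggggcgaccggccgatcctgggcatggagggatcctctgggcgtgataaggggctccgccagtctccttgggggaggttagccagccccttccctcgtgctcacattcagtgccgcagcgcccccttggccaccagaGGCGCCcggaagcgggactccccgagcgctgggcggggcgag
Cabp1, second start, chr5:115186122-115186371, minus strand: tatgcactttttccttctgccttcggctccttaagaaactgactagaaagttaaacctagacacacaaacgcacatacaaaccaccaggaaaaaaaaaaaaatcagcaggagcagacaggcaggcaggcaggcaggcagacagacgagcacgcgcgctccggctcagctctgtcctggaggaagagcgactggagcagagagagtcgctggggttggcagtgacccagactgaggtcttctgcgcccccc
Prph, chr15:99054924-99055173, plus strand: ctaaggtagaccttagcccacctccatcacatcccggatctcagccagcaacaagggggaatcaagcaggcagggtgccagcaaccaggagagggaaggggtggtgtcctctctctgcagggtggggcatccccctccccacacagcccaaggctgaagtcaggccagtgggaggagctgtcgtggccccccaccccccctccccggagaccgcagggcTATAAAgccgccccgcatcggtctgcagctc
The motifs were GGCGCC, a GC-rich element bound by SMAD1 and SMAD5, CAGCACC, a part of the RE1 element bound by REST, TATAAA, the TATA box, and TTTGAA, a part of the TCF/LEF motif, each searched on both strands. The first *Cabp1* promoter held GGCGCC once, beginning at position −42, and 9.59% of the 32851 promoters in the table held it within the same 250 bases. The *Prph* promoter held TATAAA at position −31, as 12.4% of all promoters held that motif. No match to any of the 4 motifs was found in the second *Cabp1* promoter or in those of *Stmn3* and *Shisa8*. CAGCACC was in 5.73% and TTTGAA in 16.0% of all promoters. A match is a run of letters and not a measured site.

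Both tubulin-binding genes with high counts were found in nearly all or most cells. *Stmn1* gave 1155 CPM in WT (1149 to 1162) and 1126 CPM in the dKO-labelled library (1120 to 1132). Its log2 ratio was −0.04 (−0.05 to −0.03), so the libraries were close. *Stmn2* gave 555 CPM (550 to 560) and 897 CPM (892 to 903), a log2 ratio of 0.69 (0.68 to 0.71) or 1.62-fold. *Stmn3* gave 20.9 and 25.3 CPM, a log2 ratio of 0.28 (0.19 to 0.36). The fourth stathmin, *Stmn4*, had only 7 UMIs in WT against 1.

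Among the other members, *Cabp1* differed most, from 23.9 CPM in WT (23.0 to 24.9) to 39.1 CPM in the dKO-labelled library (37.9 to 40.3). This is a log2 ratio of 0.71 (0.63 to 0.78) or 1.63-fold. *Shisa8* was at 7.89 and 9.03 CPM, a log2 ratio of 0.20 (0.06 to 0.33). The filament gene *Prph* was at 11.9 and 11.5 CPM, with a log2 ratio of −0.04 (−0.16 to 0.07). *Nptx2* was at 8.70 and 8.47 CPM, with a log2 ratio of −0.04 (−0.18 to 0.10). For these last 2 members the intervals include 0.

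All 7 members passed the minimum of 50 UMIs over both libraries, and 2 of them, *Stmn2* and *Cabp1*, were at least 1.5-fold higher in the dKO-labelled library. Of all 13654 genes with that minimum, 2.81% were at least 1.5-fold higher and 2.61% at least 1.5-fold lower. No member was lower by that factor. The members' median log2 ratio was 0.20, against −0.01 over all these genes, whose 5th and 95th percentiles were −0.44 and 0.40. The members were chosen with these ratios known, so the counts are descriptions.

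**Figure D1:**
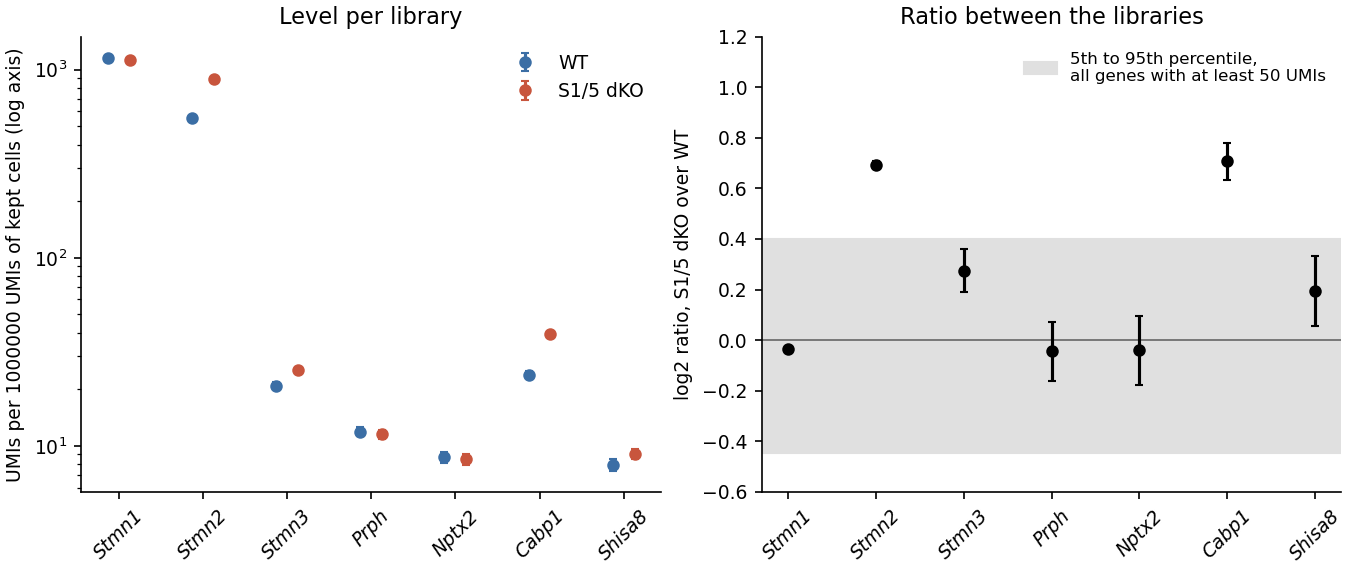
Left, level of each member in UMIs per 1000000 UMIs of the kept cells (log axis) in the WT library and in the dKO-labelled library. Right, log2 ratio of the libraries with the 5th to 95th percentile of all genes with at least 50 UMIs shaded, where bars are 95% counting intervals. *Stmn2* (0.69) and *Cabp1* (0.71) lie above the shaded range and the other 5 members within it.

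Genes next to *Stmn2* and *Cabp1* on the chromosome stood mostly near 0. Over the 16 measured neighbours of *Stmn2* with a ratio the median log2 ratio was −0.03, and the nearest on each side, *Gm16685* and *Hey1*, stood at 0.61 (0.06 to 1.17) and 0.10 (−0.56 to 0.77) on few UMIs. Over the 20 neighbours of *Cabp1* the median was 0.07 and no neighbour was above 0.22. Its nearest, *Mlec* and *Pop5*, were at −0.11 and 0.09. The medians around the other 5 members lay between −0.04 and 0.09.

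The single cells showed that *Stmn2* was not made at 1 common level. To compare cells of unequal depth, each cell was thinned at random to 10000 UMIs, which left out 43 WT cells and 67 cells of the dKO-labelled library. Of the 2193 WT cells, 464 (21.2%, 19.5 to 22.9%) then had 0 *Stmn2* UMIs, and of the 2843 cells of the other library 185 (6.51%, 5.63 to 7.48%). A single Poisson rate with the same mean gives 0.344% and 0.0126% of cells at 0. The median WT cell had 5 *Stmn2* UMIs, with quartiles at 1 and 9, and the highest had 27. The median in the dKO-labelled library was 9, the quartiles were 5 and 13, and the highest was 32. The variance over the mean was 4.55 in WT and 3.18 in the other library, where a Poisson count has 1.

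Even with all UMIs counted, 307 WT cells and 104 cells of the dKO-labelled library (3.66%) among those of at least 10000 UMIs had no *Stmn2* UMI. A single rate gives fewer than 1 such cell in each library, 0.0276 and 0.00100 cells. The cells with 0 *Stmn2* UMIs after thinning had a median depth of 40647 UMIs in WT, against 38660 in the other WT cells. In the dKO-labelled library the medians were 34397 and 34881.5 UMIs. The median share of mitochondrial UMIs in the same classes was 1.63% against 1.74% in WT and 1.78% against 1.85% in the other library.

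**Figure D2:**
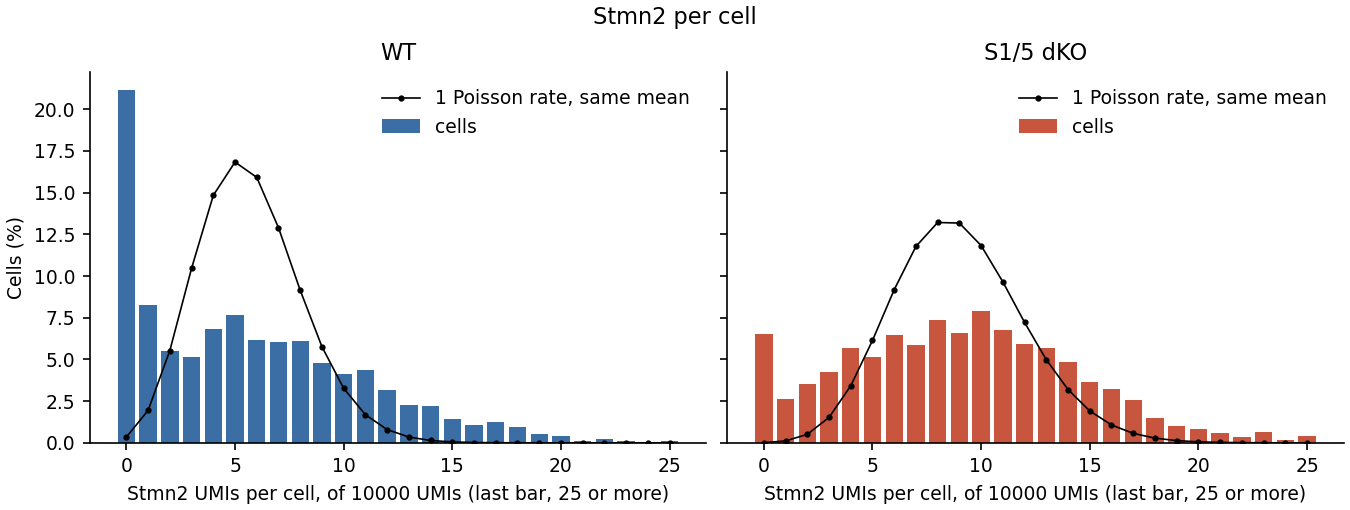
Percent of cells by their number of *Stmn2* UMIs after each cell was thinned to 10000 UMIs, for WT (left) and the dKO-labelled library (right). Bars are cells, with 25 or more in the last bar, and dots give 1 Poisson rate with the same mean. The bars at 0, 21.2% and 6.51%, stand apart from the dots in both libraries.

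The same cells were then measured in the UMIs that the thinning had set aside, so that the class and the level came from different molecules. WT cells with no *Stmn2* UMI among 10000 had 31.6 CPM (28.9 to 34.5) in their remaining UMIs and the other WT cells 692 CPM (686 to 699), which is 21.9-fold apart (20.1 to 24.0). The levels in the dKO-labelled library were 51.4 CPM (45.5 to 57.8) and 958 CPM (951 to 965), 18.6-fold apart (16.6 to 21.04). Classed on 5000 UMIs, an alternative added after seeing the data, the classes were 7.98-fold and 5.75-fold apart. The RNA outside cells, read from barcodes with 10 to 100 UMIs, held *Stmn2* at 436 CPM (WT) and 756 CPM (dKO-labelled), and its part in the level of the cells without *Stmn2* was not tested.

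The difference between the libraries appeared in both classes of cells. Among cells with a *Stmn2* UMI, the log2 ratio of the level in the remaining UMIs was 0.47 (0.45 to 0.49) or 1.38-fold. Among cells without one it was 0.70 (0.49 to 0.92). The RNA outside cells also held more *Stmn2* in the dKO-labelled library, 756 against 436 CPM, and its part in this ratio was not tested. The share of cells with a UMI, 78.8% in WT and 93.5% in the dKO-labelled library, was 1.19-fold higher in the latter.

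Few genes had such a distribution. Among 303 genes with a mean of at least 5 UMIs per thinned cell in each library, *Stmn2* had the highest share of cells at 0 in WT and the second highest in the dKO-labelled library. The histone gene *Hist1h1b*, chosen after its values were seen, had 19.1% and 19.3% of cells at 0. By the fold between cells with and without a UMI in the thinned part, *Stmn2* ranked 5 of 7613 genes with at least 50 cells in the class without. Of those genes 2.51% were at least 2-fold apart in both libraries, and 2 of the 6 members ranked, *Stmn2* and *Prph*, were among them. *Prph* was 2.32-fold and 2.35-fold apart, and *Cabp1*, at 2.09-fold and 1.89-fold, fell below 2-fold in the dKO-labelled library. *Stmn3* (1.91-fold in both libraries), *Nptx2* (1.46-fold and 1.85-fold) and *Shisa8* (1.77-fold and 1.99-fold) were below 2-fold. *Stmn1* had too few cells at 0 to be ranked, 2 in WT and 5 in the other library.

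The 5 sparse members were seen in a minority of thinned cells. *Cabp1* was detected in 17.5% of WT cells (15.9 to 19.2%) and in 26.9% of cells of the dKO-labelled library (25.3 to 28.5%), and without thinning in 48.7% and 58.4%. *Stmn3* was detected in 15.8% and 19.0% of cells. *Prph* was detected in 11.5% and 10.0%, *Nptx2* in 7.75% and 8.51%, and *Shisa8* in 7.62% and 9.07%. A single Poisson rate at the mean of the thinned cells gives 19.2% and 29.8% for *Cabp1*, which was found in fewer cells than that in both libraries. In WT the Poisson value was only just above the interval (19.18% against a limit of 19.17%). For *Stmn3* it gives 17.0%, inside the WT interval (14.3 to 17.4%), and 20.55%, just above the other (17.6 to 20.49%). For *Prph*, *Nptx2* and *Shisa8* the Poisson value lay inside the interval of the share in both libraries. The RNA outside cells held *Cabp1* at 22.7 CPM (16.2 to 30.9) and 31.2 CPM (23.8 to 40.0), near its level in cells, and its part in these shares was not tested. *Prph* stood at 10.8 and 10.7 CPM there, *Stmn3* at 13.04 and 15.3, *Nptx2* at 7.37 and 4.09, and *Shisa8* at 7.37 and 5.11.

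The dependence on the cell cycle was read from phases called in the thinned cells with the Seurat lists of 43 S and 54 G2/M genes, none of them a member. In WT 30.0% of cells were called G1, 24.9% S and 45.1% G2/M, and in the dKO-labelled library 24.6%, 24.4% and 51.0%. *Ube2c*, which drives the degradation of mitotic cyclins and is on the G2/M list, was 2.40-fold and 2.06-fold higher in G2/M than in G1. Cells called G2/M were deeper, with medians of 45887 UMIs in WT and 39016 in the other library, against 36706.5 and 32227 in G1.

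The abundant stathmins hardly moved with the phase. *Stmn1* was at 1134 CPM in G1, 1144 in S and 1172 in G2/M in WT, and at 1087, 1050 and 1171 CPM in the dKO-labelled library. *Stmn2* was at 576, 561 and 541 CPM in WT. It was at 889, 846 and 921 CPM in the dKO-labelled library. The log2 ratio of G2/M over G1 for *Stmn2* was −0.09 (−0.12 to −0.06) in WT and 0.05 (0.03 to 0.07) in the other library, and the latter turned to −0.03 when phases were called without thinning. Nor did a phase hold the cells without *Stmn2*. In WT they were 20.2% of G1, 20.9% of S and 21.9% of G2/M cells, with overlapping intervals. In the dKO-labelled library they were 5.87% of G1, 8.93% of S (6.92 to 11.3%) and 5.65% of G2/M cells (4.52 to 6.97%).

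The levels of the 5 sparse members in G2/M were all below those in G1 and in S, in both libraries, although the WT difference of *Stmn3* from G1 was near 0. *Nptx2* went in both libraries the same way, from 10.2 CPM in G1 and 10.9 in S to 6.98 in G2/M in WT, and from 9.60 and 11.4 to 6.90 in the other library. Its log2 ratio of G2/M over G1 was −0.54 (−0.78 to −0.30) and −0.48 (−0.71 to −0.24). With phases called without thinning, the WT value of *Nptx2* was −0.18 and that of *Shisa8* turned from −0.24 to 0.10. *Shisa8* was at 8.36 CPM in G1, 9.24 in S and 7.09 in G2/M in WT, and at 9.93, 12.6 and 7.27 CPM in the dKO-labelled library. Its log2 ratio of G2/M over S was −0.38 (−0.64 to −0.12) and −0.80 (−1.01 to −0.58).

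*Cabp1* differed between the libraries in this respect. In WT it was at 23.8 CPM in G1, 26.0 in S and 23.2 in G2/M, and its G2/M over G1 log2 ratio of −0.04 had an interval that includes 0 (−0.18 to 0.10). Levels in the dKO-labelled library were 45.3, 48.9 and 32.9 CPM, a log2 ratio of −0.46 (−0.57 to −0.35). Under the alternatives the WT value ran from −0.20 to −0.05 and the other from −0.73 to −0.39. *Stmn3* was at −0.01 (−0.16 to 0.15) in WT and −0.30 (−0.43 to −0.16) in the other library, but with phases called at 5000 UMIs the WT value was −0.29. *Prph* gave −0.18 (−0.38 to 0.02) and −0.32 (−0.52 to −0.13), and these intervals overlap.

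All genes were measured the same way. Among 7888 genes with at least 500 UMIs in each library that are not on the phase lists, 0.304% were at least 1.25-fold lower in G2/M than in G1 in both libraries, and 5.76% at least 1.25-fold higher. Among the 7 members 1, *Nptx2*, was lower by that factor in both, a call that its WT value of −0.18 without thinning ends, and 0 were higher. Against S, 1.24% of the genes were that much lower in G2/M in both libraries and 2.54% higher, and 2 of the 7 members, *Nptx2* and *Shisa8*, were lower. The median log2 ratio of G2/M over G1 was −0.09 over the members and 0.06 over these genes in WT, and −0.32 and 0.07 in the dKO-labelled library.

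**Figure D3:**
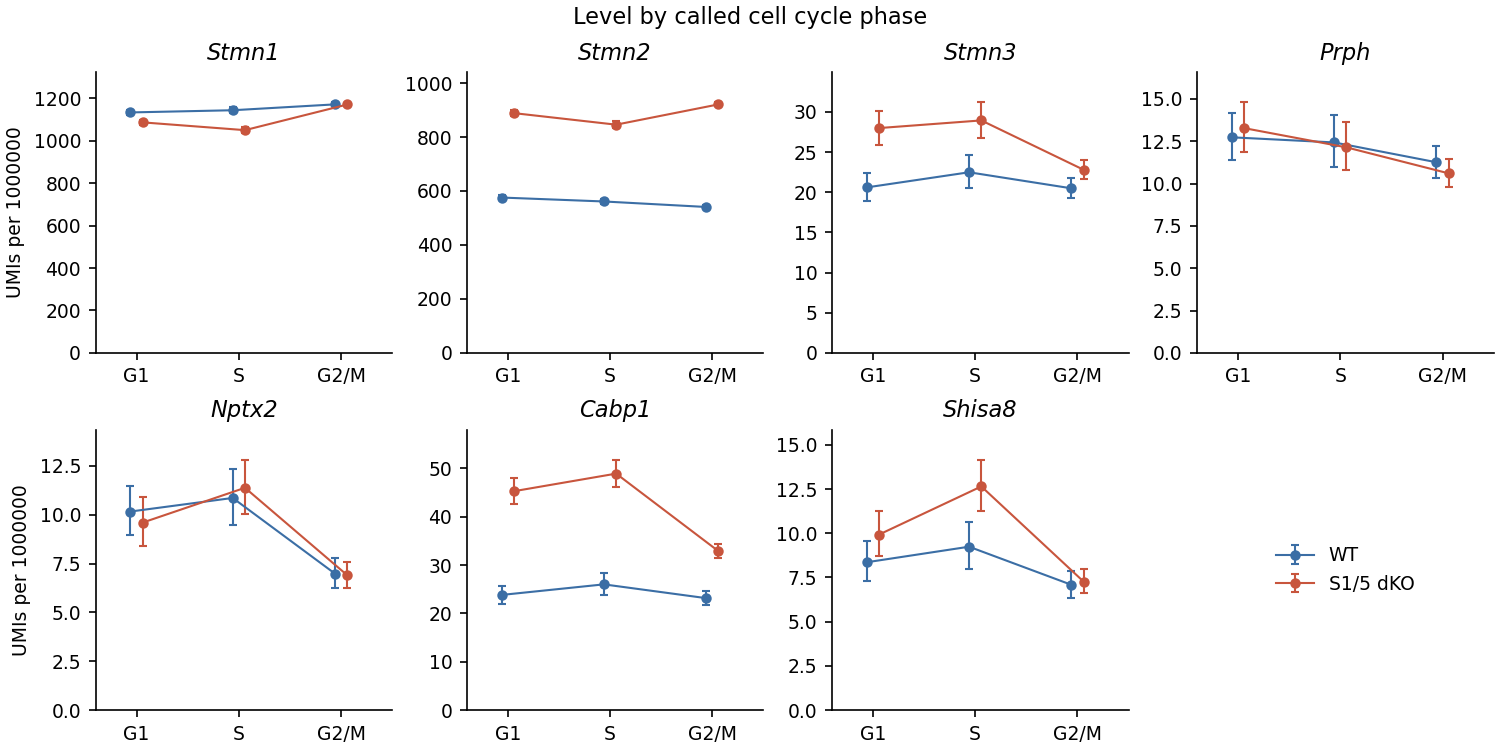
Level of each member in UMIs per 1000000, on axes that start at 0, in cells called G1, S and G2/M, for WT and the dKO-labelled library, with 95% Poisson intervals. *Stmn1* and *Stmn2* run nearly flat, *Nptx2* is lowest in G2/M in both libraries (6.98 and 6.90), and *Cabp1* in the dKO-labelled library is lower in G2/M (32.9) than in G1 (45.3).

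Phase and depth were then held in turn to see where the ratio between the libraries lay. For *Stmn2* the log2 ratio was 0.63 in G1, 0.59 in S and 0.77 in G2/M cells. By UMIs per cell it was 0.64 below 20000, 0.58 from 20000 to 40000 and 0.76 above 40000, so each phase and each depth range gave a higher level in the dKO-labelled library. For *Cabp1* it was 0.93 (0.78 to 1.07) in G1, 0.91 (0.76 to 1.06) in S and 0.51 (0.40 to 0.61) in G2/M, and the G2/M interval overlaps neither of the others. Its ratio was 0.87 and 0.70 in the upper depth ranges, and 0.26 below 20000 UMIs, where 28 and 64 UMIs left an interval from −0.40 to 0.96. *Stmn3* was at 0.44 (0.28 to 0.61) in G1 and 0.15 (0.04 to 0.27) in G2/M. *Shisa8* was above 0 by its interval in S (0.45, 0.19 to 0.72) and from 20000 to 40000 UMIs (0.23, 0.02 to 0.44). *Prph* and *Nptx2* had intervals that include 0 in every phase and depth range.

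**Figure D4:**
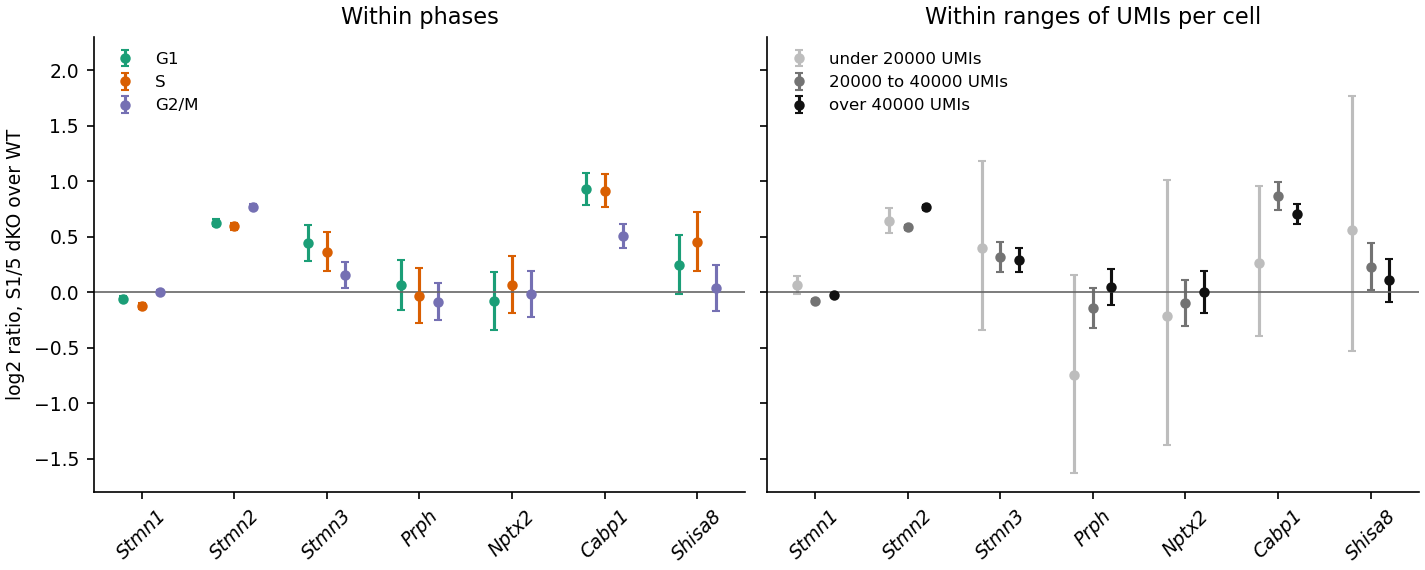
Log2 ratio of the dKO-labelled library over WT for each member within called phases (left) and within ranges of UMIs per cell (right), with 95% counting intervals. *Stmn2* stays between 0.58 and 0.77 throughout, *Cabp1* is lower in G2/M (0.51) than in G1 (0.93), and intervals widen below 20000 UMIs.

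Whether the members came up in the same cells was described over their 21 pairs, as the number of thinned cells with a UMI of both over the number expected from the single shares. The 6 pairs with *Stmn1*, which was in 99.9% and 99.8% of thinned cells, could hardly depart from 1 (0.995 to 1.00 in both libraries) and say nothing about its cells. Over the other 15 pairs the median was 1.04 in WT, where no pair had an interval above 1, and 1.14 in the dKO-labelled library, where 4 did. These medians include the pairs with *Stmn2*, which was in 78.8% and 93.5% of thinned cells. Such pairs could rise little above 1, least in the dKO-labelled library, so they cannot be set against the sparse pairs. All 4 pairs with an interval above 1 lay among the 5 sparse members. They were *Stmn3* with *Cabp1*, 186 cells against 145 expected (1.28, 1.10 to 1.48), *Stmn3* with *Shisa8*, 70 against 49.0 (1.43, 1.11 to 1.80), *Prph* with *Shisa8*, 37 against 25.9 (1.43, 1.01 to 1.97), and *Nptx2* with *Shisa8*, 34 against 22.0 (1.55, 1.07 to 2.16).

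Over the 10 pairs of the sparse members the median was 1.15 in WT, with 7 pairs above 1, and 1.25 in the dKO-labelled library, with 10 above 1. With cells thinned to 5000 UMIs the medians were 1.18 and 1.10, so the order of the libraries turned. Computing the expectation within each phase left 3 of the 4 pairs with an interval above 1, *Stmn3* with *Cabp1* at 1.26 (1.09 to 1.45), *Stmn3* with *Shisa8* at 1.40 (1.09 to 1.77) and *Nptx2* with *Shisa8* at 1.49 (1.03 to 2.08). *Prph* with *Shisa8* was then at 1.42 with an interval that includes 1 (0.997 to 1.95). At least 3 of the 5 sparse members were detected in 44 WT cells, where independence gives 29.6, and in 98 cells of the other library, where it gives 61.9. A single cell of the dKO-labelled library had all 5, and no WT cell did. Other genes of like detection were not counted this way, so whether these excesses are particular to the members was not tested. Pearson correlations over cells, on the ln(1 + UMIs) scale, were weak for the sparse pairs, from −0.01 to 0.04 in WT and from 0.01 to 0.09 in the other library.

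**Figure D5:**
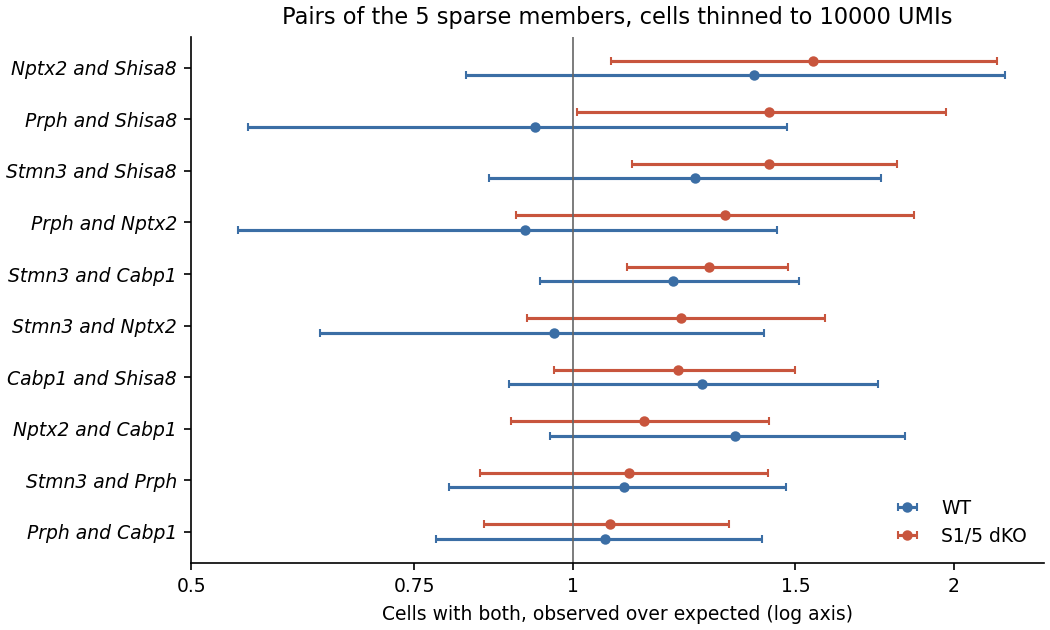
Thinned cells with a UMI of both genes over the number expected from the single shares (log axis) for the 10 pairs of the sparse members, in WT and in the dKO-labelled library, with 95% Poisson intervals of the observed number. In the dKO-labelled library all 10 pairs lie above 1 (1.07 to 1.55), and in WT 7 do and no interval is above 1.

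Of the abundant members, *Stmn1* and *Stmn2* had the highest correlation of any pair, 0.18 over 2193 WT cells and 0.15 over 2843 cells of the dKO-labelled library. *Stmn1* was at 1194 CPM in WT cells with a *Stmn2* UMI and 1011 CPM in those without, and at 1138 and 959 CPM in the other library, 1.18-fold and 1.19-fold. *Cabp1* went the other way. It was at 21.6 CPM in WT cells with *Stmn2* (20.5 to 22.6) and 32.8 CPM in those without (30.4 to 35.4), and at 38.7 CPM (37.5 to 39.9) and 45.7 CPM (40.9 to 50.9) in the dKO-labelled library. *Cabp1* was therefore higher in that library both in cells with and in cells without *Stmn2*. *Prph* and *Stmn3* were also lower in WT cells with *Stmn2*, 0.833-fold and 0.898-fold, with log2 intervals of −0.46 to −0.06 and −0.306 to −0.002, and their intervals in the other library include no difference. For *Nptx2* and *Shisa8* the intervals include no difference in both libraries.

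The genes most alike to each member over single cells were ranked among 6089 genes by the smaller correlation of the libraries. For *Stmn2* they were *Rpl39l* (0.21 and 0.20), a ribosomal protein gene copy, then *Stmn1* and the actin-binding *Pfn1* (0.13 and 0.16). *Rpl39l* was at 127 CPM in WT cells with *Stmn2* and 68.5 CPM in those without, and at 206 and 84.6 CPM in the dKO-labelled library. For *Stmn1* they were *Ppia* (0.24 in both libraries), the pluripotency factor gene *Pou5f1* (0.17 and 0.16) and *Klf2*. For *Cabp1* they were *Mkrn1* (0.13 in both libraries), *Ccnd3*, which encodes a G1 cyclin (0.12 and 0.16), and *Dppa5a* (0.10 and 0.15). *Stmn3* was led by *Apoe* (0.09 and 0.16), *Prph* by the neuronal tubulin gene *Tubb3* (0.07 and 0.06), *Nptx2* by *Eef1e1* (0.06 and 0.05) and *Shisa8* by *Rbfa* (both 0.07). Correlations of this size in sparse counts are descriptions, and the genes of a cell share its library and total.

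Markers of mESCs were high in cells with and without *Stmn2*. *Pou5f1* was at 1324 and 1286 CPM in WT and at 1294 and 1254 CPM in the dKO-labelled library, 1.03-fold in both. *Zfp42* was 1.01-fold and 0.985-fold, and *Nanog* 0.965-fold and 0.877-fold, the latter with an interval of the log2 ratio from −0.28 to −0.10. The list of formative and primed pluripotency genes summed to 1.21-fold and 1.28-fold more in cells with *Stmn2*. Over all cells most of this sum was *Dnmt3l* alone, with 93.9 of 144 CPM in WT and 88.6 of 141 CPM in the dKO-labelled library. The sum therefore says little about the other genes of the list. The repressor gene *Rest* was at 252 and 258 CPM in WT and at 232 and 227 CPM in the other library, and *Kdm1a* at 136 and 140 CPM and at 127 and 125 CPM, all with intervals of the ratio that include 1. *Id1* was 1.16-fold higher in WT cells with *Stmn2* and 0.887-fold in the dKO-labelled library, so the order reversed between the libraries.

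Genes of neurons and their progenitors were then read by list. No thinned cell had more than 4 of the 12 neuron markers or more than 3 of the 13 neural progenitor markers in either library. The neuron list summed to 184 CPM in WT and 191 CPM in the dKO-labelled library. Most of this was *Tubb3* alone, at 141 and 152 CPM, so the sum says little about the other markers. Of its 10 genes with at least 50 UMIs 0 were at least 1.5-fold higher and 1, *Rbfox3*, lower (46 and 26 UMIs). The neural progenitor list summed to 17.6 and 16.6 CPM, with *Pax6* lower (4.31 and 2.75 CPM) among 4 genes measured. Of 13 neuronal cytoskeleton genes 0 were higher and 0 lower, and the largest changes, in the neurofilament gene *Nefl* and in *Dpysl3* and *Gap43*, were log2 ratios of −0.47, −0.47 and −0.43. Of 15 genes of synapses and secretory vesicles 0 were higher and 1, *Vgf*, lower (70 and 49 UMIs). Of 10 relatives of *Cabp1*, *Shisa8* and *Nptx2* 0 were higher or lower. Over all genes with at least 50 UMIs, 2.81% were higher and 2.61% lower by that factor. At such shares lists this short can hold 0, so the counts do not set them apart from other genes. Lists for mesoderm (1.88 and 1.44 CPM), endoderm (2.19 and 2.36 CPM) and fibroblasts (0.802 and 1.05 CPM, with 4 and 2 of 7 genes at 0) were near the limit of detection.

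The REST list, 14 genes for the repressor and its corepressors, had a median log2 ratio of −0.09 with 0 genes at least 1.5-fold apart. *Rest* itself stood at 253 CPM (WT) and 231 CPM (dKO-labelled) by sums over all cells. *Sin3b* was the furthest at −0.54 (−0.57 to −0.51). The 11 tubulin genes had a median of −0.01, again with 0 genes apart by 1.5-fold. Over all genes with at least 50 UMIs, 2.81% were higher and 2.61% lower by that factor.

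Finally, the members were followed across other genes of the same cells. In cells with a UMI of *Sp5*, a target gene of WNT signalling and itself 2.07-fold higher in the dKO-labelled library, *Cabp1* was at 10.1 CPM (7.45 to 13.5) against 24.7 CPM in the other WT cells. It was at 18.9 CPM (16.1 to 22.0) against 40.9 CPM in the dKO-labelled library. *Prph* was at 5.61 against 12.2 CPM and at 5.77 against 12.0 CPM, and *Stmn3* at 14.7 against 21.3 CPM and at 15.7 against 26.1 CPM. *Stmn2* ran the other way, with 698 against 548 CPM and 947 against 893 CPM. There were 111 such cells in WT and 243 in the other library.

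Ranges of gene lists gave a like picture for some members. The ranges were uneven in size, with 1342 WT cells in the lowest and 398 in the highest formative and primed range. Most UMIs of that list were *Dnmt3l*, as given above. From the lowest to the highest range of cells by UMIs of formative and primed genes, *Prph* was 0.680-fold in WT and 0.721-fold in the dKO-labelled library, *Stmn3* 0.741-fold and 0.718-fold, and *Cabp1* 0.922-fold and 0.723-fold, whereas *Stmn2* was 1.07-fold and 1.08-fold. By BMP-SMAD target genes, *Cabp1* was 0.895-fold in WT and 1.72-fold in the dKO-labelled library, and *Stmn3* 1.05-fold and 1.49-fold. By mESC genes, *Stmn3* was 1.53-fold and 1.36-fold and *Cabp1* 1.29-fold and 1.38-fold. *Nptx2* was 0.739-fold and 0.941-fold, *Shisa8* 0.759-fold and 0.874-fold, and *Prph* 0.838-fold and 1.02-fold. *Stmn2* was 1.05-fold in both libraries and *Stmn1* 1.10-fold and 1.07-fold.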

How the data were processed

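Per the submitters' processing notes, the authors aligned reads to mm10 and counted UMIs with Cell Ranger 3.0.2. The deposited matrices hold raw counts per gene and barcode, with no normalization, and list every barcode of the kit. Cells were kept at 1000 or more detected genes and at most 5% mitochondrial UMIs, the limits of the paper, and no doublets were removed. The library totals were 100446187 and 113937221 UMIs, of which 95965242 and 109020533 were in kept cells. Levels are UMIs of a gene over all UMIs of the cells concerned, times 1000000. Intervals are exact 95% Poisson, binomial or conditional Poisson intervals. Cells were thinned to 10000 UMIs with a fixed seed, and phases were called on merged thinned cells with Seurat 5.3.0 on R 4.3.3 after normalization with a scale factor of 10000. Cells classed on thinned UMIs were measured in their other UMIs where a gene was compared with itself. Gene positions are from GENCODE, matched for 31011 of 31053 identifiers. RefSeq also lists copies of *Stmn1* annotated as pseudogenes, which the matrices do not count separately, so *Stmn1* counts may include or miss reads shared with them. Python 3.11.15, numpy 2.4.6, scipy 1.17.1, pandas 2.3.3, matplotlib 3.10.9 and edgeR 4.0.16 (TMM scaling) were used. The ratio and class functions were tested on simulated data. There was 1 library per group, so no test was run.

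The members, gene lists and ranges were chosen with earlier results of these data known. Genes named singly are the members, *Smad1*, *Smad5*, *Sp5*, listed cell cycle, *Id*, REST and stathmin genes, the 3 genes furthest from 0 in each other list, the 2 nearest neighbours on each side and the 3 most alike genes. *Dnmt3l* was named for its share of a list sum. Alternatives were other limits on genes, mitochondrial UMIs and UMIs per cell, per-cell means, TMM and median scaling, thinning to 5000 UMIs or none, equal weight of phases, the lowest and highest 25% of cells by G2/M score, and minimums of 20 and 200 UMIs. Added after seeing the data were a minimum of 20000 UMIs per cell, classes from 5000 UMIs, and classes without cells of high UMIs.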

Additional observations from a re-analysis of the deposited data

How the results depend on the processing

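The log2 ratio of *Stmn2* was 0.69 and ran from 0.66 to 0.70 under the alternatives. It moved by more than its counting interval to 0.68 without cells of over 2 times the median UMIs, 0.66 with per-cell means, 0.66 thinned to 10000 UMIs and 0.66 with phases weighted equally. The members' median log2 ratio ran from 0.18 to 0.28. The median log2 ratio of G2/M over G1 in WT moved from −0.09 to −0.20 with phases called at 5000 UMIs and to −0.19 without cells of high UMIs, and in the dKO-labelled library from −0.32 to −0.69 between the lowest and highest 25% of cells by G2/M score. For *Stmn2* in that library the ratio turned from 0.05 to −0.034 with phases called without thinning. The share of cells with a *Stmn2* UMI moved with depth, to 71.9% and 90.0% at 5000 UMIs and to 85.5% and 96.0% without thinning. The fold between cells with and without *Stmn2* fell to 7.98 and 5.75 when cells were classed on 5000 UMIs. Fewer UMIs set the class there, and the reason for the fall was not tested. Of 108 genes of the other lists with at least 50 UMIs, 16 were at least 1.5-fold apart. With minimums of 20 and 200 UMIs these were 24 of 124 and 9 of 86, for which no share over all genes was computed. Over all genes with at least 50 UMIs, 2.81% were higher and 2.61% lower by that factor. Over the members' library and G2/M ratios, *Stmn2* included, 132 of 161 values stayed within their intervals, 28 moved and 1 reversed. Another 3 changed sign from intervals that include 0. These were the *Nptx2* library ratio (to 0.13, thinned to 10000 UMIs) and the WT G2/M ratios of *Shisa8* (to 0.10, phases called without thinning) and *Stmn3* (to 0.02, per-cell means). The sparse-pair medians stayed within the pairs' spread but turned their order at 5000 UMIs (1.18 and 1.10). Leaving out shared barcodes could change nothing, since there were 0. No paired analysis was possible because each group has 1 library, and the spread between cultures is unknown.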

Other observations

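*Mest*, an imprinted gene chosen after its values were seen, was at 13.4 CPM (12.6 to 14.2) in WT cells with a *Stmn2* UMI and 3.77 CPM (2.98 to 4.71) in those without, 3.55-fold apart. In the dKO-labelled library, where *Mest* was 8.26-fold higher over all cells, it was at 94.0 and 89.4 CPM, a log2 ratio of 0.07 (−0.04 to 0.19). *Id2* and *Id3* stood like *Id1*, with 1.23-fold and 1.25-fold more in WT cells with *Stmn2* than in those without, and 0.944-fold and 0.940-fold in the dKO-labelled library, where both intervals include 1.

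The genes of 2C-like cells, which resemble cells of the embryo after its first division, had 210 UMIs in WT and 573 in the dKO-labelled library. Of the latter, 167 lay in 1 cell of under 10000 UMIs, which was not classed by *Stmn2*. Among classed cells, the 210 UMIs of WT lay in 16 of 1729 cells with *Stmn2* (0.925%) and the 406 of the other library in 31 of 2658 (1.17%), with up to 135 and 180 in 1 cell. None of the 464 and 185 cells without *Stmn2* had one, which allows a share of cells of up to 0.647% and 1.62% by a limit of 3 counts. So few cells hold these UMIs that no share was compared.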
